A study of Mus musculus with 16 samples.

Results

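Committed monocyte progenitors (cMoPs) were compared with granulocyte-monocyte progenitors (GMPs) sorted from the bone marrow of wild-type C57BL/6 mice. All 5 cMoP arrays and all 5 GMP arrays entered the comparison, 10 of the 16 arrays of the series, and for each gene the difference was taken within each drinking water and then averaged over both waters. The cMoP group held 3 arrays from antibiotic water and 2 from control water, and the GMP group likewise held 3 and 2. Antibiotic water carried ampicillin, metronidazole, neomycin and vancomycin, each at 1 g/L, and was given for 3 weeks, and both waters contained 2% sucrose. Both progenitors were sorted as lineage-negative, Kit-positive and CD105-negative cells, the cMoPs as positive for CD115 and Ly6C, and the GMPs as negative for CD115 and high for CD16/32. The remaining 6 arrays, of common myeloid progenitors (CMPs, intermediate for CD16/32 and negative for CD115; 3 from antibiotic and 3 from control water), added to the estimate of the spread and are given as levels only. Since no label tells whether each array stands for a single mouse or for pooled mice, the p-values cover only the scatter among these samples, which may be technical.

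As background, GMPs are descendants of CMPs that give rise to neutrophils and monocytes, and the classical gate also holds precursors of eosinophils, basophils and mast cells. The cMoP is a later stage that has lost granulocyte potential and yields monocytes. The growth factor receptor CD115, encoded by Csf1r, transmits the survival signal of the monocyte lineage, Irf8 and Klf4 are transcription factors needed for monocytes, and Cebpe and Gfi1 are transcription factors needed for granulocytes.

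Values are log2 signals from the deposited table, with 1 probe set for each of 22180 genes, and 1 unit is a doubling of the signal. Arrays have no read depth, and their number limits the precision. The lower quartile of the signals lay between 2.89 and 2.99 on the 16 arrays, and a mean under 2.89 is not shown to be above background, since the table has no detection calls. Arrays of the same progenitor and water correlated across genes at 0.9872 to 0.9907 over 8 pairs of cMoPs or GMPs, and a cMoP array with a GMP array at 0.9763 to 0.9855 over 25 pairs, where genes are not independent replicates. On the second principal component, with 12% of the variance, the cMoP arrays lay between -23.6 and -16.8 and the GMP arrays between 18.5 and 30.0, so they did not overlap. On the fourth, with 4.8%, CMP control replicate 2 lay farthest out at -31.76 and cMoP control replicate 1 next at 20.14. Without the CMP array 1209 genes were called in the comparison that follows, 1151 of them among those called with it, and without the cMoP array 833 genes were called, 773 of them among those called with it.

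A gene was called at a Benjamini-Hochberg adjusted p under 0.05 in limma, adjusted over all 22180 genes. Between cMoPs and GMPs 1202 genes were called, 5.42% of those tested, of which 577 were higher in cMoPs (2.6%) and 625 lower (2.82%). The falls were the larger changes. Changes of at least 2-fold numbered 324 (1.46%), 143 higher and 181 lower. At least 8-fold changes numbered 0 higher and 8 lower in cMoPs, and at least 4-fold changes 18 higher and 32 lower. All 5 cMoP arrays lay above all 5 GMP arrays for 739 genes (3.33%) and below them for 704 (3.17%), and 944 of the called genes were among these. The 20 largest rises and 20 largest falls described below were chosen among these 944, so their lack of overlap follows from the choice. The median difference over all genes was 0.013. The counts called in each gene list that follows are to be set beside the 2.6% higher and 2.82% lower of all genes. Differences are cMoP minus GMP in log2, given with their standard error, and because they average the 2 waters equally they can depart slightly from the difference between the means over 5 arrays.

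**Figure D1:**
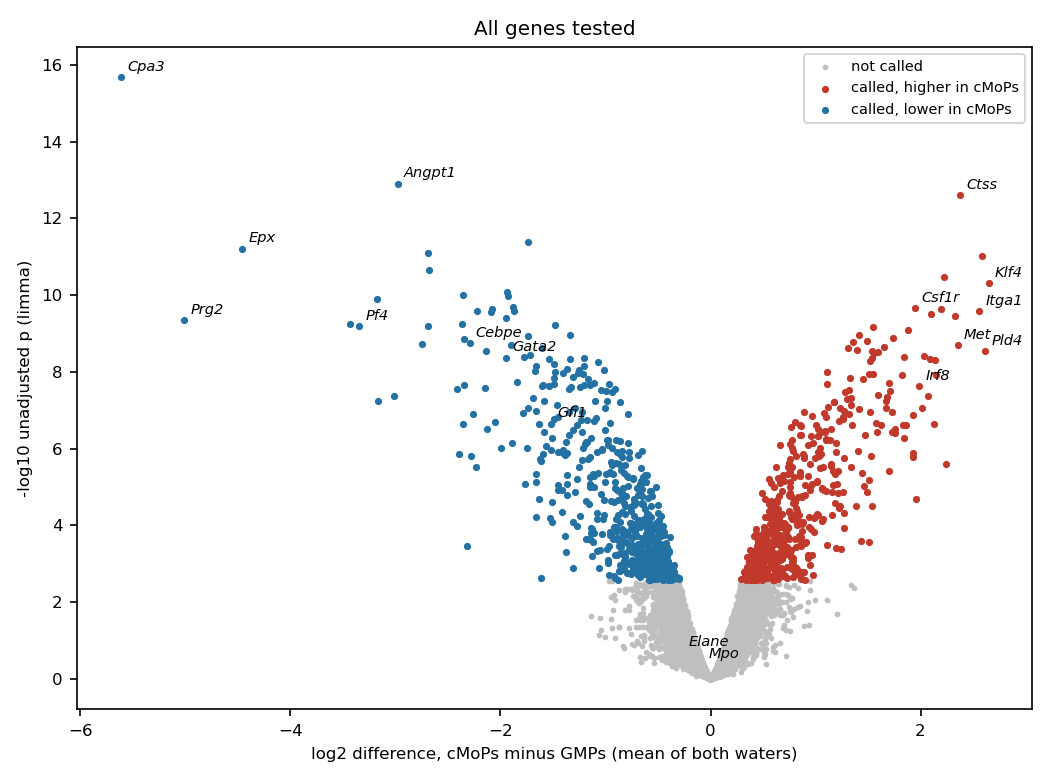
Each point is 1 of 22180 genes, by its log2 difference (cMoPs minus GMPs, mean of both waters) and the -log10 of its unadjusted limma p. Red genes were called higher in cMoPs (577), blue genes lower (625) and grey genes were not called; the farthest fall is Cpa3 at -5.62 and Mpo and Elane lie in the grey area near 0.

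The gate itself was checked first, and its genes are no result of the comparison because they chose the cells. Csf1r had signals of 9.18, 9.19, 9.49, 9.44 and 9.34 on the cMoP arrays, against 7.12, 6.94, 7.47, 7.92 and 7.29 on the GMP arrays. Every cMoP array lay above every GMP array, as the sort on CD115 requires. Ly6c2, one of the genes of the Ly6C antigen, averaged 12.70 ± 0.049 in cMoPs and 12.56 ± 0.072 in GMPs (SD, n = 5 each), so its RNA was near the top of the scale in both gates (difference 0.14 ± 0.19, adjusted p = 0.817 in limma). This standard error pools the spread of all groups, and Ly6c2 lay at 9.46 to 10.89 on the CMP arrays. It lay at 12.66 to 12.76 on the cMoP arrays and at 12.49 to 12.65 on the GMP arrays, without overlap. Kit had a signal of 9.24 to 9.67 in cMoPs and 10 to 10.15 in GMPs. Of the 8 genes measured for the sorted antigens, 1 was called higher (Csf1r) and 1 lower (Kit). Fcgr3, one of the genes of CD16/32, averaged 9.44 in cMoPs and 9.81 in GMPs and was not called (adjusted p = 0.196 in limma). Its arrays still did not overlap, at 9.28 to 9.66 in cMoPs and 9.72 to 9.9 in GMPs. The transcripts chosen as markers of the 2 stages went with the labels where they differed. Irf8, Klf4, Ly86, Ccr2, Ctss, F13a1, Mpeg1 and Ms4a6c were higher in cMoPs, and Gfi1 and Cebpe were lower, while the granule genes Mpo, Elane, Prtn3, Ctsg and Ms4a3 were bright in both populations and were not called. Ms4a3 nevertheless lay at 10.82 to 11.22 in cMoPs and at 11.55 to 11.74 in GMPs, without overlap. Its CMP arrays, at 7.86 to 9.4, also entered the pooled spread.

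Genes of the monocyte programme were higher in cMoPs as a group. Of the 44 measured monocyte genes, 24 rose, 1 fell (the interferon-gamma receptor chain Ifngr1, -0.57 ± 0.09) and 19 were not called, with a median difference of 0.80 beside 0.013 over all genes. The list was written with earlier results of these data known, so its count describes and does not test it. These are bulk samples, in which more cells that express a gene and more of its RNA per cell cannot be told apart. Ctss encodes cathepsin S, the lysosomal protease that trims the invariant chain of MHC class II. Its signals were 9.80, 9.68, 9.63, 9.51 and 9.52 in cMoPs, against 7.45, 7.20, 7.54, 7.09 and 7.06 in GMPs. The groups were separated by almost 2 units, and the difference was 2.37 ± 0.10 (5.18-fold, limma adjusted p = 1.83e-09). Pld4, a single-strand nuclease of the endolysosome, had 9.57, 9.18, 9.53, 9.40 and 9.5 in cMoPs, against 5.47, 6.25, 7.0, 7.51 and 7.31 in GMPs. The cMoP arrays were tight and the GMP arrays were spread over 2 units without reaching them (2.61 ± 0.22, 6.12-fold, limma adjusted p = 1.25e-06). Ly86 (MD-1, the partner of the receptor CD180) had 10.13, 10.07, 10.18, 9.91 and 10.04 in cMoPs, against 7.19, 7.42, 8.46, 8.39 and 8.38 in GMPs, again with no overlap (2.01 ± 0.21, limma adjusted p = 1.42e-05).

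Further monocyte genes rose by 1 to 2 units. The chemokine receptor Ccr2, which monocytes need to leave the marrow, averaged 9.31 ± 0.15 in cMoPs and 7.71 ± 0.38 in GMPs (SD, n = 5 each). Cx3cr1, the fractalkine receptor, averaged 8.62 ± 0.25 in cMoPs and 7.17 ± 0.34 in GMPs. Both rose, by 1.55 ± 0.14 and 1.41 ± 0.15, and in both the 5 cMoP arrays lay above the 5 GMP arrays. Mpeg1, the pore-forming perforin-2 of phagocytes, rose by 1.65 ± 0.13, the matrix protein Tgfbi by 1.74 ± 0.14, and Cybb, the catalytic subunit of the phagocyte NADPH oxidase, by 1.18 ± 0.12. Cybb was the 1 called member among 8 measured oxidase genes.

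Ctss carries an interferon response motif just before its start, and its promoter is shown for that reason, beside those of the genes of largest fall, of a granulocyte factor and of a platelet gene described further on. The sequences are the 250 bases before the first listed start of each gene, from RefSeq on GRCm38.p6, read 5′ to 3′ on the gene's strand, with the matches in capitals. Ctss lies at chr3:95526536-95526785 (plus strand) and holds GAAACCGAAA from base -21 and AACTGTC from base -79.
Ctss: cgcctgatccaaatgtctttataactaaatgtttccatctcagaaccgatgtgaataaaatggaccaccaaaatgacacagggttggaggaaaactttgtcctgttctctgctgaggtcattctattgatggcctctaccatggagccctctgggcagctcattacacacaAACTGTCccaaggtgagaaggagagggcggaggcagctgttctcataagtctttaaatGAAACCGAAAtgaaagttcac
The motifs searched on both strands were GAAA, any 2 bases and GAAA again for interferon response factors, GAGGAAGT for ETS factors, TTGCNNAA for C/EBP factors, AACNGNC for MYB and TGANTCA for AP-1, and matches may overlap. The interferon response motif was found in 3.04% of all 27025 promoters of the table, in 2.96% of the 16990 promoters of genes tested, in 4.98% of the 462 promoters of genes called higher and in 2.12% of the 472 promoters of genes called lower. Among 116 promoters of genes called at least 2-fold higher it was in 9 (7.76%). These 9 belonged to Ctss, Tgfbi, Aif1, Txndc5, I830077J02Rik, Gm5150, BC147527, Cybb and Clec4b1, named here after their values were seen. The ETS motif was in 4.33% of promoters of genes called higher and 2.12% of those called lower, against 2.27% of genes tested. No test was made of these shares, and a match is no evidence of binding.

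**Figure D2:**
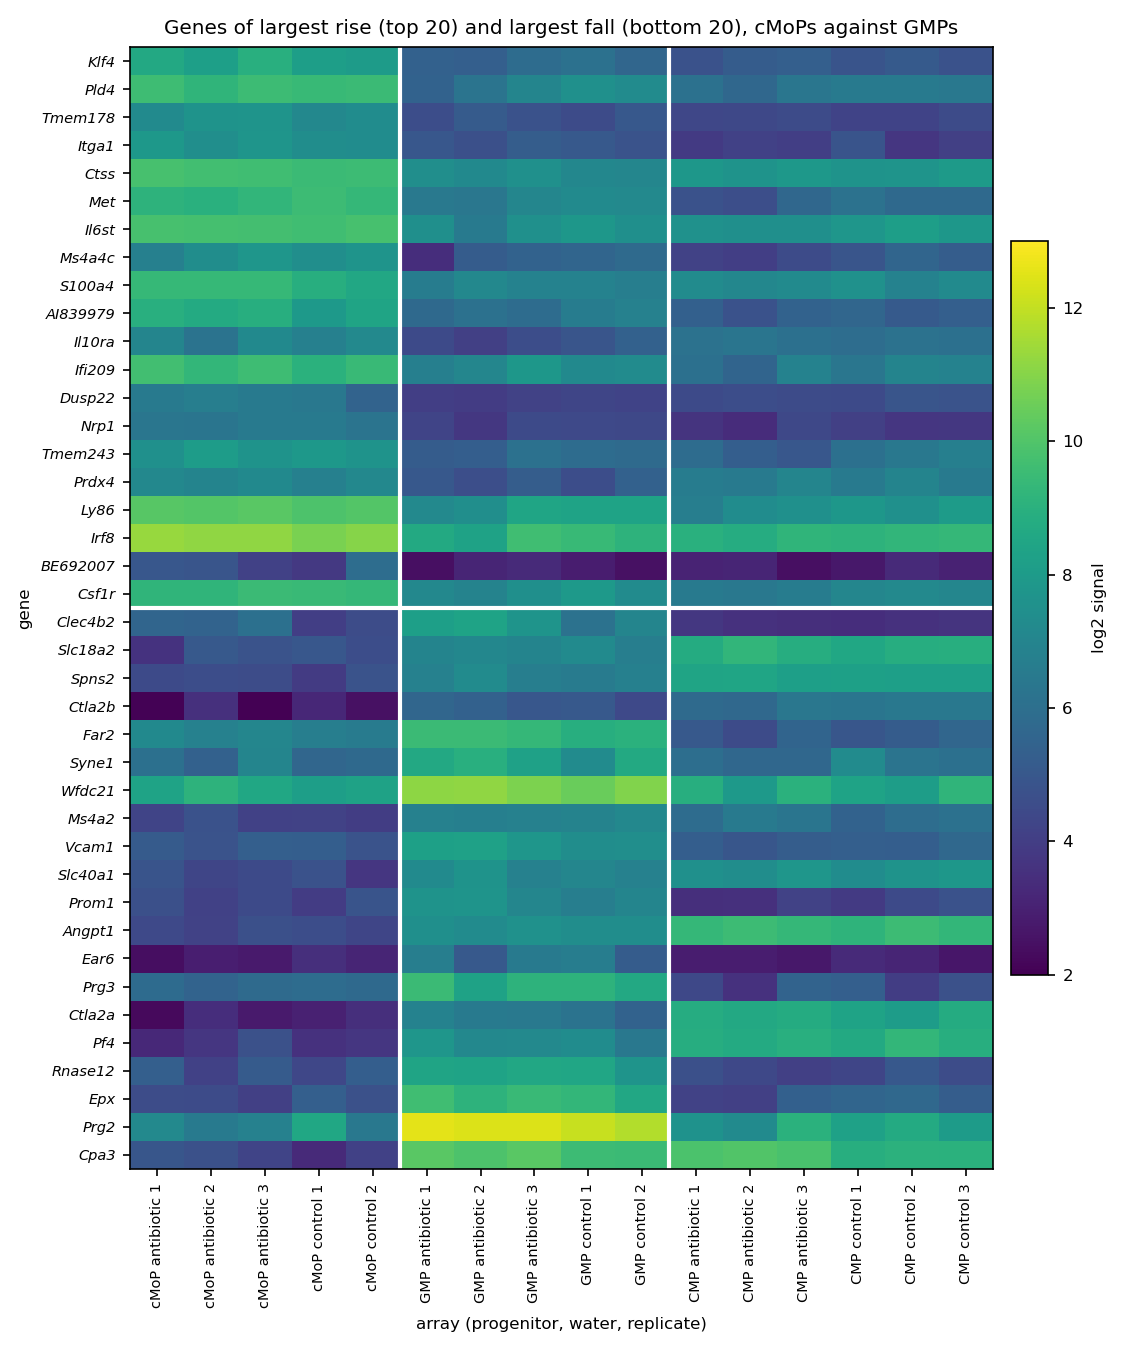
Log2 signal (colour) of the 20 genes of largest rise and the 20 of largest fall in cMoPs against GMPs, on each of the 16 arrays (cMoPs left, GMPs in the middle, CMPs right). In the upper block all 5 cMoP arrays are brighter than all 5 GMP arrays, and in the lower block all 5 are dimmer. This separation was a condition for choosing these genes. The CMP arrays are bright for Cpa3, Pf4 and Angpt1 and dim for Epx and Ear6.

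Among transcription factors of the monocyte and dendritic lineages, Klf4 and Irf8 stood out by size. Klf4 had 8.66, 8.23, 8.92, 8.17 and 8.04 in cMoPs, against 5.41, 5.33, 5.87, 6.10 and 5.65 in GMPs. It had the largest rise of all 22180 genes, 2.65 ± 0.16 (6.27-fold, limma adjusted p = 1.06e-07), and the arrays did not overlap. Irf8 had 11.29, 11.17, 11.16, 10.78 and 11 in cMoPs, against 8.68, 8.33, 9.64, 9.40 and 9.09 in GMPs. The GMP arrays of Irf8 varied by more than 1 unit but stayed below all cMoP arrays (1.98 ± 0.19, limma adjusted p = 5.22e-06), and its dimmer probe set gave 2.16. In all, 5 of the 21 measured factors of this list rose and 0 fell, with a median of 0.13 (0.063 without cMoP antibiotic replicate 1). Nfil3, a basic leucine zipper factor, rose by 0.66 ± 0.14 with overlapping arrays. The related factors Mitf and Tfe3, which regulate lysosomal genes, rose by 0.58 and 0.55, and both lost their call without cMoP control replicate 1, which left 3 members called; Mitf also did so without GMP control replicate 1, and Tfe3 without cMoP control replicate 2, GMP control replicate 2 or replicate 1 or 3 of either population in antibiotic water (highest adjusted p over the settings tried 0.102 for Mitf and 0.134 for Tfe3). Spi1 (PU.1), which both lineages need, averaged 9.04 ± 0.15 in cMoPs and 8.81 ± 0.12 in GMPs and was not called (0.21 ± 0.11, adjusted p = 0.367 in limma). Cebpb lay above the GMP arrays on all 5 cMoP arrays, at 7.65 to 7.74 against 7.21 to 7.5, and still missed the threshold (0.36 ± 0.13, adjusted p = 0.162 in limma). Its pooled spread took in the CMP arrays, at 5.62 to 6.35.

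Of 24 measured factors of granulocyte and earlier stages, 7 fell, 0 rose and 17 were not called, with a median of -0.17. Cebpe, the C/EBP factor of the promyelocyte stage, had 7.68, 7.10, 7.26, 7.14 and 6.69 in cMoPs, against 9.62, 9.55, 9.69, 9.21 and 9.25 in GMPs. Gfi1, the zinc finger repressor of monocyte genes in granulocytes, had 6.88, 6.50, 7.18, 6.86 and 7.02 in cMoPs, against 8.40, 8.72, 8.46, 8.21 and 8.40 in GMPs. Neither gene's arrays overlapped, and they fell by 2.29 ± 0.18 and 1.52 ± 0.17 (limma adjusted p = 9.52e-07 for Cebpe and 2.96e-05 for Gfi1). Ets1 fell by 1.49 ± 0.14, Gfi1b, the erythroid and megakaryocytic paralog of Gfi1, by 1.29 ± 0.14, Stat3, which relays G-CSF, by 0.58 ± 0.11, and Myb, a factor of proliferating progenitors, by 0.57 ± 0.09, at 11.11 in cMoPs and 11.68 in GMPs. Cebpa, which acts upstream of both fates, averaged 8.59 ± 0.26 in cMoPs and 8.71 ± 0.11 in GMPs (adjusted p = 0.822 in limma). The CMPs lay below GMPs for Cebpe, at 5.13 to 6.21, and for Gfi1, at 5.35 to 6.38, so that these 2 factors had their highest level of the 3 populations in GMPs.

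The Gfi1 promoter, shown because it holds a C/EBP motif, lies at chr5:107725806-107726055 (minus strand), with TTGCTGAA from base -143.
Gfi1: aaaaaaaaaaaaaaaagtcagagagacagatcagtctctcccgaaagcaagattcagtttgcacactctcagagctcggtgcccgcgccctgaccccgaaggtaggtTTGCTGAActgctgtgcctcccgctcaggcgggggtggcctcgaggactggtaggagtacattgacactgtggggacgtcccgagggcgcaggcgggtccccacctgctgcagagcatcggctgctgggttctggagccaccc
The letters TTGCNNAA were in 9.11% of promoters of genes tested, 8.44% of those called higher and 7.63% of those called lower, and in 12.1% of the 116 called at least 2-fold higher and 9.63% of the 135 called at least 2-fold lower. The MYB letters were in 27.2% of genes tested and in 25.8% of both called groups. The AP-1 letters were in 6.48% of genes tested, 5.63% of those called higher and 8.47% of those called lower, and in 8.62% of those at least 2-fold higher and 11.9% of those at least 2-fold lower. These shares were not tested either.

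**Figure D3:**
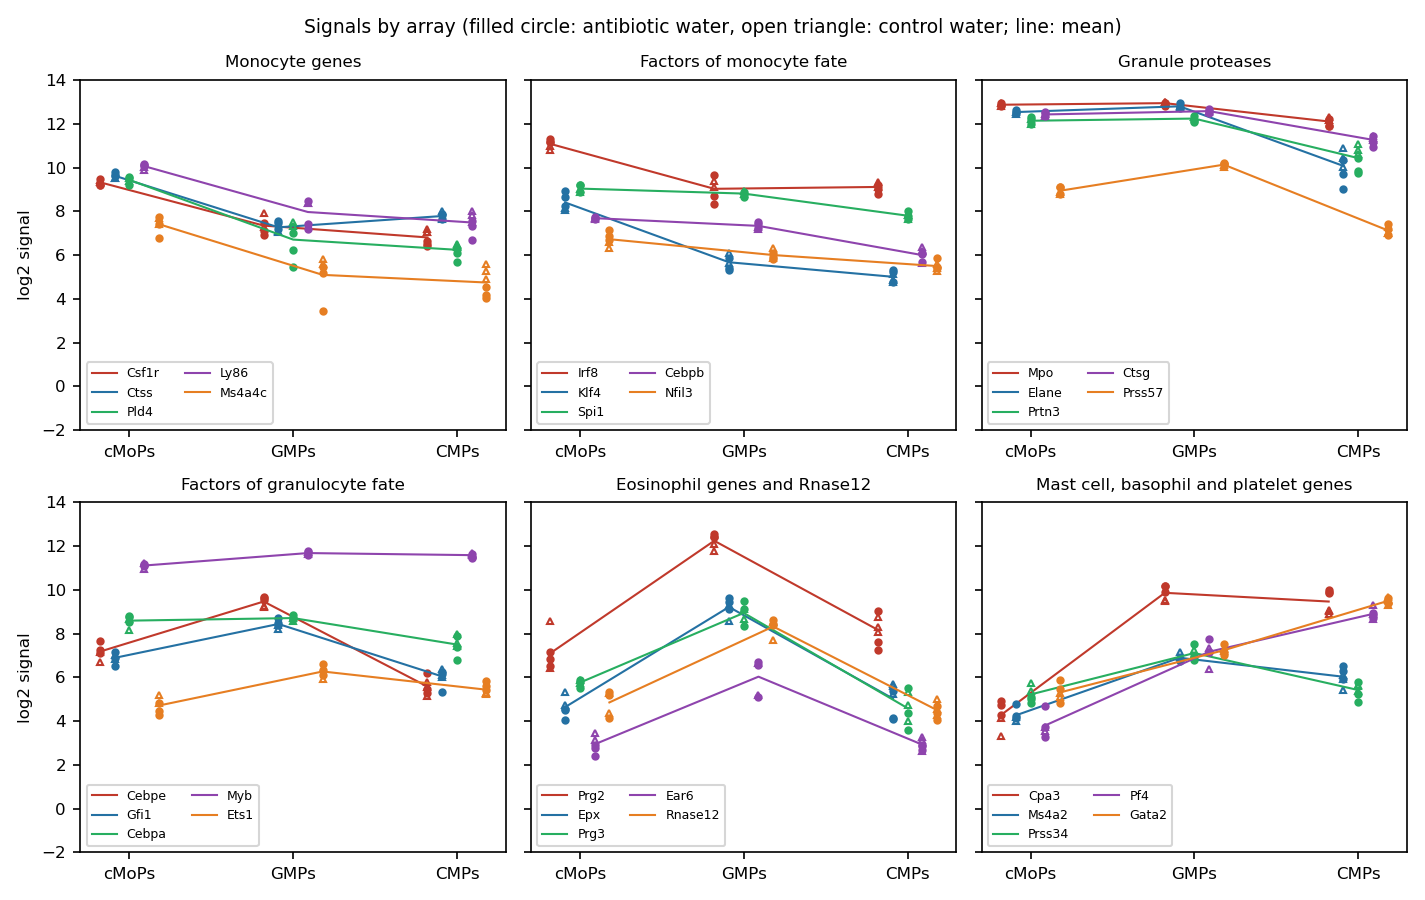
Log2 signal of 30 genes by population (cMoPs, GMPs, CMPs), in 6 panels; filled circles are antibiotic arrays, open triangles control arrays and lines join the population means. Csf1r, Ctss, Irf8 and Klf4 are highest in cMoPs, Mpo, Elane, Prtn3 and Ctsg are bright in cMoPs and GMPs, with the 5 Elane points of cMoPs just under those of GMPs, Cebpe, Prg2 and Epx peak in GMPs, and Gata2 and Pf4 are lowest in cMoPs and highest in CMPs.

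Receptors that receive cytokines and growth factors changed in both directions. Of 35 measured, 11 were called higher in cMoPs, including Csf1r and Flt3, and 4 lower, including Kit, with a median of 0.15 (0.095 without cMoP antibiotic replicate 1). Csf1r and Kit are genes of the sorted antigens, so their part of these counts is no result of the comparison. Il6st (gp130), the signalling chain shared by the receptors of IL-6 and related cytokines, had 9.78, 9.76, 9.72, 9.63 and 9.82 in cMoPs, against 7.47, 6.55, 7.54, 7.81 and 7.47 in GMPs. Its partner Il6ra averaged 9.43 ± 0.20 in cMoPs and 8.28 ± 0.49 in GMPs. Neither chain's arrays overlapped, and they rose by 2.33 ± 0.16 and 1.05 ± 0.14. Met, the receptor of hepatocyte growth factor, had 9.12, 8.98, 9.26, 9.52 and 9.33 in cMoPs, against 6.44, 6.36, 7.06, 7.27 and 7.17 in GMPs. This separation of Met was 2.35 ± 0.19 (5.11-fold, limma adjusted p = 1.02e-06). Il10ra, the ligand-binding chain of the IL-10 receptor, averaged 6.89 ± 0.42 in cMoPs and 4.69 ± 0.50 in GMPs and rose by 2.13 ± 0.18. Its level in CMPs, 6.11 ± 0.11, was above that of GMPs, and Flt3, the receptor of dendritic and lymphoid precursors, likewise averaged 6.25 in cMoPs, 5.29 in GMPs and 8.35 in CMPs. Lower in cMoPs were Csf3r, the G-CSF receptor (-0.63 ± 0.12), Igf1r (-0.93 ± 0.09) and Ifngr1.

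Adhesion and surface molecules among the largest rises were Itga1, Nrp1 and Tmem178. Itga1, the alpha-1 chain of a collagen-binding integrin, had 7.86, 7.42, 7.72, 7.40 and 7.34 in cMoPs, against 4.99, 4.68, 5.23, 5.09 and 4.82 in GMPs, a gap of more than 2 units (2.56 ± 0.18, limma adjusted p = 2.68e-07). Nrp1, a co-receptor of semaphorins and VEGF, rose by 2.09 ± 0.18 and Tmem178, a transmembrane protein, by 2.58 ± 0.14. Prdx4, a peroxiredoxin of the secretory pathway, averaged 7.04 ± 0.16 in cMoPs and 4.99 ± 0.36 in GMPs, and lay at 6.49 to 6.99 in CMPs. The phosphatase Dusp22 averaged 6.32 ± 0.47 in cMoPs and 4.14 ± 0.14 in GMPs. Prdx4 and Dusp22 rose by 2.04 ± 0.17 and 2.10 ± 0.15, and cMoP control replicate 2 was the lowest cMoP array for Dusp22, at 5.51. The integrin alpha chains Itgam and Itga2b fell, by 0.97 ± 0.12 and 1.37 ± 0.18; Itgam encodes CD11b, which was in the lineage panel, so its antigen was gated against in both populations. Among calcium-binding S100 proteins, S100a4, S100a6 and S100a10 rose by 2.22 ± 0.13, 1.596 ± 0.131 and 1.33 ± 0.12. S100a10 lay at 10.19 to 10.72 in CMPs, overlapping cMoPs at 10.2 to 10.64. S100a8, a subunit of the neutrophil protein calprotectin, fell by 0.79 ± 0.09 between 2 high levels, 11.51 in cMoPs and 12.30 in GMPs. Its partner S100a9 fell by 0.52 and missed the threshold without cMoP control replicate 1 (adjusted p = 0.0547).

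Sensors of microbial ligands were higher in cMoPs more often than lower, with 13 of 36 called higher and 4 lower, beside 2.6% and 2.82% of all genes. Their median was 0.22. Without cMoP control replicate 2 the count of 13 was 8 and the median 0.145. The endosomal receptors Tlr9, which detects DNA, and Tlr8 rose by 1.26 ± 0.20 and 1.32 ± 0.13, and Unc93b1, the chaperone that carries them to endosomes, by 0.89 ± 0.12. Tlr8 had 4.56, 4.74, 4.46, 3.66 and 4.10 in cMoPs, against 2.88, 2.90, 3.07, 2.83 and 2.94 in GMPs, where it was at the lower quartile of the arrays. Nlrp3, an inflammasome sensor, rose by 1.53 ± 0.20. Tlr4, the endotoxin receptor, went the other way, with 5.46, 5.17, 5.70, 5.75 and 5.12 in cMoPs and 6.39, 6.63, 6.23, 6.56 and 6.38 in GMPs (-1.004 ± 0.152). Ddx58 (RIG-I), a cytosolic RNA sensor, fell by 1.54 ± 0.15. Clec7a, the beta-glucan receptor dectin-1, rose by 1.93 ± 0.26, and the lectin Clec4b2 fell by 2.35 ± 0.18. Of the adaptors that carry activating signals, Fcer1g rose by 0.88 ± 0.12 and Tyrobp by 0.57 ± 0.09, and Trem2, a receptor that signals through Tyrobp, by 1.70 ± 0.24. Near relatives such as the Clec4, Ms4a4, Ear and Ctla2 genes are alike in sequence, and cross-hybridisation between them was not tested.

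Lysosomal genes had 8 of 31 members higher and 3 lower, beside 2.6% and 2.82% of all genes. Their median was 0.10, and 0.038 or 0.062 without GMP antibiotic replicate 2 or 3. Besides Ctss, the cathepsins Ctsh and Ctsc rose by 1.62 ± 0.19 and 1.10 ± 0.13, Psap, the precursor of the saposins that help degrade sphingolipids, by 1.35 ± 0.11, and the membrane proteins Cd68 and Lamp1 by 0.87 ± 0.14 and 0.63 ± 0.09. Cd63, a tetraspanin of granules and lysosomes, fell by 1.48 ± 0.11. In the Ms4a family of membrane proteins, 4 of 17 rose, led by Ms4a4c (2.24 ± 0.31), Ms4a6c (1.41 ± 0.18) and Ms4a6b (1.01 ± 0.15). Ms4a4c had 6.79, 7.40, 7.76, 7.44 and 7.68 in cMoPs, against 3.44, 5.2, 5.44, 5.6 and 5.80 in GMPs, where GMP antibiotic replicate 1 lay far below the other 4. The fourth was Ms4a4b, at 3.3 in cMoPs and 2.6 in GMPs, which lost its call without cMoP control replicate 1 or GMP control replicate 2 (adjusted p of up to 0.101).

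Genes of the neutrophil granules were mostly lower in cMoPs, by differing amounts. Mpo and the azurophil proteases Elane, Prtn3 and Ctsg were not called. Mpo, myeloperoxidase, had 12.93, 12.86, 12.80, 12.80 and 12.96 in cMoPs and 12.82, 12.96, 12.97, 12.98 and 12.98 in GMPs, and these overlapped (-0.08 ± 0.09, adjusted p = 0.795 in limma). Elane, neutrophil elastase, lay at 12.44 to 12.64 on the cMoP arrays and at 12.71 to 12.93 on the GMP arrays, without overlap, and was still not called. The spread in its test is pooled over all groups and includes the CMP arrays, which for Elane reached from 9.03 to 10.88. Prtn3 averaged 12.14 in cMoPs and 12.24 in GMPs, and Ctsg 12.43 in cMoPs and 12.58 in GMPs, and the adjusted p of these 3 proteases in limma lay between 0.537 and 0.787. Such signals are near the top of the scale, where an array may compress differences, which was not tested. All 4 were lower in CMPs, Elane at 9.03 to 10.88 and Mpo at 11.88 to 12.30. Of the 21 measured genes of the primary granule and its processing, 8 fell and 2 rose, with a median of -0.30. The difference was negative for 18 of the 21, as for 10422 of all 22180 genes. For 11 of the 21 all 5 cMoP arrays lay below all 5 GMP arrays, as for 3.17% of all genes. Prss57, another serine protease of these granules, had 9.11, 8.80, 9.13, 8.78 and 8.88 in cMoPs, against 10.18, 10.14, 10.20, 10.02 and 10.12 in GMPs, with more than 0.8 units between the groups (-1.20 ± 0.11, limma adjusted p = 5.08e-06). Hdc, which makes histamine, fell by 1.26 ± 0.11, Nkg7, a granule membrane protein, by 1.00 ± 0.11, and the protease inhibitor Serpinb1a by 0.73 ± 0.12. Fcnb, a ficolin, fell by 1.46 ± 0.16 with overlapping arrays, and in both populations its control arrays lay below its antibiotic arrays. The rises were those of Ctsc, which activates the granule proteases, and of Rnase2a, an eosinophil-type ribonuclease at 4.6 in cMoPs and 3.0 in GMPs, whose call was lost without cMoP control replicate 1 (adjusted p of up to 0.0666).

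Late neutrophil genes fell in 11 of 30 cases and rose in 0, with a median of -0.28, which was -0.155 without GMP control replicate 2 and -0.57 over the members brighter than the median gene. Pglyrp1, a peptidoglycan-binding protein of the specific granules, had 9.23, 8.74, 8.81, 8.49 and 8.73 in cMoPs, against 11.03, 10.97, 11.04, 10.59 and 10.79 in GMPs. It fell by 2.08 ± 0.14 (4.24-fold, limma adjusted p = 2.68e-07) with no overlap. Lrg1 fell by 1.45 ± 0.23, Ltb4r1, a leukotriene B4 receptor, by 1.18 ± 0.20, and Anxa1 by 0.72 ± 0.14. Wfdc21, a protein with a whey acidic protein domain, averaged 8.51 ± 0.37 in cMoPs and 10.91 ± 0.28 in GMPs (-2.42 ± 0.23).

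The deepest falls were in genes of eosinophils, basophils and mast cells. Of 20 measured, 12 fell, 0 rose and 8 were not called, and the median was -1.04; it was -1.84 over the members brighter than the median gene. The mean signal of the list lay between 4.39 and 4.47 on the cMoP arrays, against 5.91 to 6.23 on the GMP arrays and 4.90 to 5.24 on the CMP arrays. The share of such precursors in each gate was not measured, and its part in the other differences was not tested. Prg2, the eosinophil major basic protein, had 7.16, 6.54, 6.84, 8.57 and 6.42 in cMoPs, against 12.56, 12.40, 12.42, 12.07 and 11.75 in GMPs. Epx, eosinophil peroxidase, had 4.55, 4.52, 4.07, 5.32 and 4.74 in cMoPs, against 9.63, 9.12, 9.45, 9.29 and 8.58 in GMPs. Both genes were far apart in the 2 populations, and in both cMoP control replicate 1 was the highest cMoP array. The falls were 5.01 ± 0.36 for Prg2 (32.3-fold) and 4.46 ± 0.24 for Epx (22.05-fold), with limma adjusted p of 3.85e-07 and 2.72e-08. Prg3, a homolog of Prg2, fell by 3.17 ± 0.32 and Ear6, an eosinophil-associated ribonuclease, by 3.01 ± 0.30. Ear6 averaged 2.94 in cMoPs, close to the lower quartile of the arrays, so the size of its fall is uncertain. These 4 genes were also low in CMPs, where Prg2 lay at 7.26 to 9.03, Epx at 4.09 to 5.71, Prg3 at 3.58 to 5.52 and Ear6 at 2.65 to 3.29, all under the lowest GMP array. Rnase12, a ribonuclease A family gene, had the same order, with 4.14 to 5.31 in cMoPs, 7.69 to 8.60 in GMPs and 4.07 to 5.02 in CMPs.

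The mast cell gene Cpa3 was instead high in CMPs as well as in GMPs. It encodes the carboxypeptidase of mast cell granules and had 4.94, 4.74, 4.27, 3.33 and 4.12 in cMoPs, against 10.17, 9.92, 10.19, 9.55 and 9.48 in GMPs. More than 4 units lay between the groups, and the fall of 5.62 ± 0.15 (49.1-fold, limma adjusted p = 4.59e-12) was the deepest of all 22180 genes. In CMPs Cpa3 lay at 8.90 to 10.01, overlapping GMPs. Ms4a2, the beta chain of the high-affinity IgE receptor, averaged 4.26 ± 0.30 in cMoPs and 6.89 ± 0.16 in GMPs (-2.69 ± 0.16), and the basophil proteases Prss34 and Mcpt8 fell by 1.84 ± 0.17 and 1.45 ± 0.19. Gata2, a factor of stem cells, mast cells and basophils, had 5.45, 5.86, 4.84, 5.28 and 5.12 in cMoPs, 7.15, 7.01, 7.51, 7.22 and 7.30 in GMPs and 9.30 to 9.69 in CMPs, a step down without overlap between the 3 populations (-1.95 ± 0.17 for cMoPs against GMPs).
The promoter of Cpa3, shown as that of the gene with the deepest fall, lies at chr3:20242182-20242431 (minus strand), with a reverse MYB match, GACTGTT, from base -91.
Cpa3: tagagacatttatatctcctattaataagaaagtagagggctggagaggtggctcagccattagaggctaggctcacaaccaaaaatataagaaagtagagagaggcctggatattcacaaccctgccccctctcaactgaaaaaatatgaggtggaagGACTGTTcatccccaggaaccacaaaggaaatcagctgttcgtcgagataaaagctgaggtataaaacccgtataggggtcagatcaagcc

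Megakaryocyte genes fell in 10 of 18 cases with a median of -0.57 (-0.91 over the members brighter than the median gene), and 0 rose. Their mean signal lay between 4.63 and 4.79 on the cMoP arrays, against 5.36 to 5.63 on the GMP arrays and 6.69 to 6.96 on the CMP arrays. Pf4, platelet factor 4, had 3.27, 3.73, 4.71, 3.57 and 3.73 in cMoPs, against 7.77, 7.14, 7.17, 7.36 and 6.40 in GMPs, and 8.68 to 9.29 in CMPs. The 3 populations did not overlap, and cMoPs were 10.1-fold below GMPs (-3.34 ± 0.25, limma adjusted p = 4.59e-07). Gp5, a platelet glycoprotein, fell by 1.63 ± 0.19, the thrombin receptor F2r by 1.57 ± 0.20 and Itga2b, the platelet integrin chain CD41, by 1.37 ± 0.18. Of the 18 erythroid genes 3 fell, Car1 (-1.49 ± 0.14), Car2 (-1.60 ± 0.21) and Gata1 (-0.83 ± 0.13). The CMPs were above both populations for Car2, at 11.34 to 11.48. The Pf4 promoter, which holds an ETS and a C/EBP motif, lies at chr5:90772185-90772434 (plus strand), with a reverse ETS match from base -10 and TTGCTAAA from base -212.
Pf4: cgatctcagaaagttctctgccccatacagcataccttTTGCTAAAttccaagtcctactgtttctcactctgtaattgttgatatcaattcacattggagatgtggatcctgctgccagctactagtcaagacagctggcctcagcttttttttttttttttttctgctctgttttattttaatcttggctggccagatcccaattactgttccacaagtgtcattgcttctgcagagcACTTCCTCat

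Stem and multipotent progenitor genes fell in 11 of 24 cases and rose in 2, with a median of -0.37 (-0.62 over the members brighter than the median gene), and their mean signal lay between 5.58 and 5.87 on the cMoP arrays, against 6.29 to 6.39 on the GMP arrays and 7.29 to 7.49 on the CMP arrays. Angpt1, the ligand of Tie2, had 4.44, 4.15, 4.70, 4.59 and 4.28 in cMoPs, against 7.47, 7.29, 7.55, 7.38 and 7.39 in GMPs (-2.98 ± 0.12, limma adjusted p = 1.37e-09). A second probe set of Angpt1, with a mean signal of only 2.87, gave -0.38. Ctla2a, a cathepsin inhibitor, fell by 3.17 ± 0.21 to a mean of 3.01 in cMoPs, against 6.30 in GMPs and 8.57 in CMPs, and 2 of the cMoP arrays lay under 2.89. Adgrg1 (GPR56), a receptor of stem cells, fell by 1.94 ± 0.12, Muc13 by 1.15 ± 0.11 and the RNA-binding protein Msi2 by 0.74 ± 0.11, and all 3 were highest in CMPs, at 10.52, 10.80 and 11.14. The rises were Flt3 and Cd34; Cd34 rose by 0.33 and lost its call on leaving out any 1 of the 10 cMoP and GMP arrays except GMP antibiotic replicate 1 or cMoP control replicate 2 (adjusted p of up to 0.139).

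Among the other large falls, several had their highest level in GMPs. Vcam1, an adhesion molecule, had 5.17, 4.83, 5.32, 5.27 and 4.81 in cMoPs, against 8.24, 8.29, 7.79, 7.41 and 7.43 in GMPs (-2.69 ± 0.15). Prom1 (CD133), a protein of membrane protrusions, averaged 4.42 ± 0.37 in cMoPs and 7.22 ± 0.43 in GMPs (-2.74 ± 0.22). Far2, a fatty acyl-CoA reductase, averaged 6.88 ± 0.26 in cMoPs and 9.25 ± 0.28 in GMPs (-2.37 ± 0.17). CMPs averaged 5.29 for Vcam1, 4.06 for Prom1 and 5.14 for Far2, all below the GMP arrays. Spns2, a transporter of sphingosine 1-phosphate, and Slc18a2, the vesicular monoamine transporter of cells that store histamine or serotonin, fell by 2.36 ± 0.15 and 2.35 ± 0.22 and were highest in CMPs, at 8.30 and 8.86. Syne1 (nesprin-1), which links the nucleus to the cytoskeleton, is covered by 59 probe sets, of which all 59 were lower in cMoPs, by 0.415 to 4.067, and 58 had an unadjusted p under 0.05. Slc40a1 (ferroportin), the iron exporter, averaged 4.44 ± 0.44 in cMoPs and 7.13 ± 0.35 in GMPs and fell by 2.69 ± 0.20, and Slc25a37 (mitoferrin-1), the mitochondrial iron importer, fell by 1.03 ± 0.13. In the list of heme and iron genes 5 of 21 fell and 0 rose; without cMoP control replicate 1 or GMP control replicate 2 this count was 3.

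**Figure D4:**
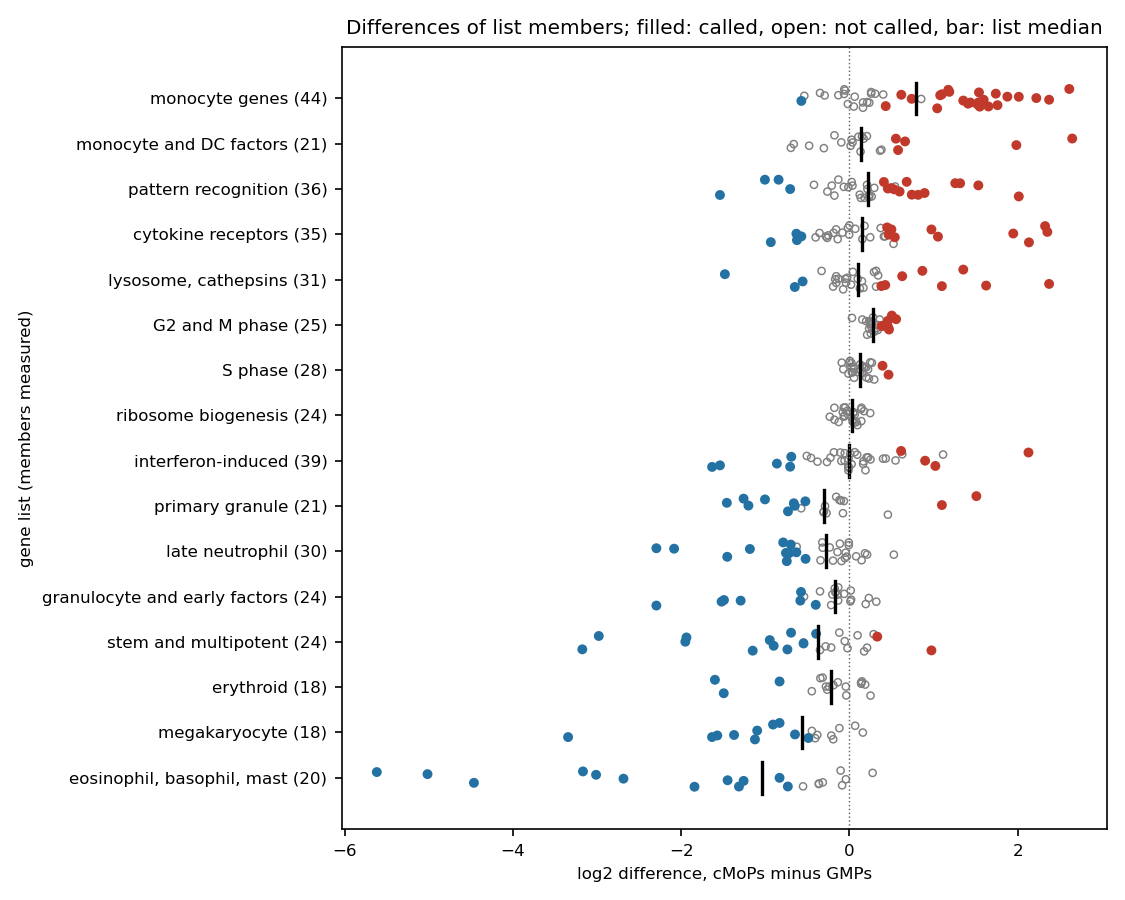
Log2 difference (cMoPs minus GMPs) of every measured member of 16 gene lists; filled points were called (red higher, blue lower), open points were not, the bar is the list's median and the number measured is in parentheses. The median is 0.80 for monocyte genes and -1.04 for eosinophil, basophil and mast cell genes, and all 25 genes of the G2 and M phases lie above 0.

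Genes of the cell cycle differed by small amounts, and those of the G2 and M phases all in the same direction. All 25 measured genes of the G2 and M phases had a positive difference, from 0.03 to 0.56 with a median of 0.28, and 6 were called. Over all genes 11750 of 22180 were positive and 2.6% were called higher. For 11 of the 25 all 5 cMoP arrays lay above all 5 GMP arrays, as for 3.33% of all genes. Aurkb, a kinase of the mitotic spindle, had 9.83, 9.71, 9.81, 9.83 and 9.82 in cMoPs, against 9.26, 9.41, 9.37, 9.28 and 9.36 in GMPs. These did not overlap (0.47 ± 0.10, limma adjusted p = 0.00855), and Kif23 and Bub1b rose by 0.50 ± 0.10 and 0.46 ± 0.09. Birc5, Plk1 and Cenpf were the other 3, and all lost their call without cMoP control replicate 2, which left 3 called (highest adjusted p over the settings tried 0.0598, 0.132 and 0.232). Of 28 S phase genes 24 had a positive difference, with a median of 0.13. For 4 of the 28 all 5 cMoP arrays lay above all 5 GMP arrays. Only 2 were called, Ccne1 (0.47) and Tk1 (0.39). The count was 0 without cMoP or GMP antibiotic replicate 1, cMoP antibiotic replicate 3, cMoP or GMP control replicate 1, or GMP control replicate 2. No member of the ribosome biogenesis list (24 genes) or the unfolded protein list (24 genes) was called in limma. Fbp1, a gluconeogenic enzyme, was the 1 glycolysis-list gene of 19 that was called; it fell by 1.51 ± 0.25, with 4.47 to 6.39 in cMoPs and 6.25 to 7.74 in GMPs, and was lower in control water in both.

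Markers of cells that the gates should leave out were also measured. Over all genes 2.6% were called higher and 2.82% lower, and in lists of this size a count of 1 cannot be told from these shares. Of 20 macrophage genes 3 rose and 4 fell, with differences from -2.69 to 1.70 and a median of -0.14. Of 25 dendritic cell and MHC class II genes 6 rose and 1 fell. H2-DMa, a peptide-loading chaperone, rose by 0.78 ± 0.13 and Btla by 1.19 ± 0.16, while H2-Ab1, an MHC class II chain, fell by 0.81 ± 0.13. In CMPs H2-DMa lay at 9.25 to 9.92, overlapping cMoPs at 9.23 to 9.95. Among 18 B lineage genes 1 rose and 1 fell. The riser, Ighm, is covered by 7 probe sets, of which the 2 brightest gave 1.83 and 1.35 and the other 5 lay between -0.64 and 0.08, and its call was lost when probe sets were averaged. On its brightest probe set CMPs lay at 10.14 to 11.14, overlapping cMoPs at 10.12 to 10.9. Rag2, the recombinase subunit, fell by 1.38 ± 0.28. Of 18 T and NK cell genes Klrk1 rose by 1.59 ± 0.19 and Lat and Gzmb fell by 0.89 ± 0.18 and 1.51 ± 0.28. Of 19 stromal and endothelial genes 0 were called. The mean signal of the stromal list lay between 3.82 and 3.98 on the cMoP arrays and between 3.92 and 4.05 on the GMP arrays, that of the T and NK list between 3.80 and 3.86 on the cMoP arrays and between 3.699 and 3.89 on the GMP arrays, and that of the macrophage list between 4.71 and 4.96 on the cMoP arrays and between 5.06 and 5.23 on the GMP arrays.

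Interferon-induced genes had no common direction, with 4 of 39 called higher and 5 lower, beside 2.6% and 2.82% of all genes. Their median was -0.01. Ifi209, a member of the Ifi200 family, averaged 9.40 in cMoPs and 7.23 in GMPs and rose by 2.13 ± 0.24 with no overlap, and Gbp3, a guanylate-binding protein, rose by 0.90. Rtp4, a chaperone of receptor trafficking, averaged 3.72 in cMoPs, 5.37 in GMPs and 7.43 in CMPs (-1.63 ± 0.27), with overlapping cMoP and GMP arrays. The count of 5 lower was 3 without GMP antibiotic replicate 1 or 3, cMoP antibiotic replicate 2, cMoP control replicate 1 or GMP control replicate 2.

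The comparison was also made in each water alone. In antibiotic water, with 3 cMoP and 3 GMP arrays, 866 genes were called (3.9%), and in control water, with 2 and 2, 385 (1.74%). All 1202 genes called over both waters had the same sign in each, 756 of them were also called in antibiotic water, 372 in control water and 314 in both. Being called on the mean of both waters favours a shared sign, and the calls within a water reuse the same arrays. These counts are therefore no independent repeat. Leaving out GMP antibiotic replicate 2 brought the antibiotic count to 576, and leaving out cMoP control replicate 1, GMP control replicate 1 or GMP control replicate 2 brought the control count to 193, 226 and 210. Whether the difference between cMoPs and GMPs itself depended on the water was tested as an interaction in limma. At a rate under 0.05, and also under 0.2, 0 genes were called, and 1177 had an unadjusted p under 0.05. Without GMP control replicate 2 the count at 0.05 was 1. Klf4 was 3.07 higher in cMoPs in antibiotic water and 2.23 in control water, Cpa3 differed by -5.44 and -5.79, and Prg2 by -5.61 and -4.42, in antibiotic and in control water. AI839979, among the 5 genes of smallest p in this test, rose by 2.94 in antibiotic water and by 1.46 in control water (adjusted p of the difference between waters 0.712 in limma).

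**Figure D5:**
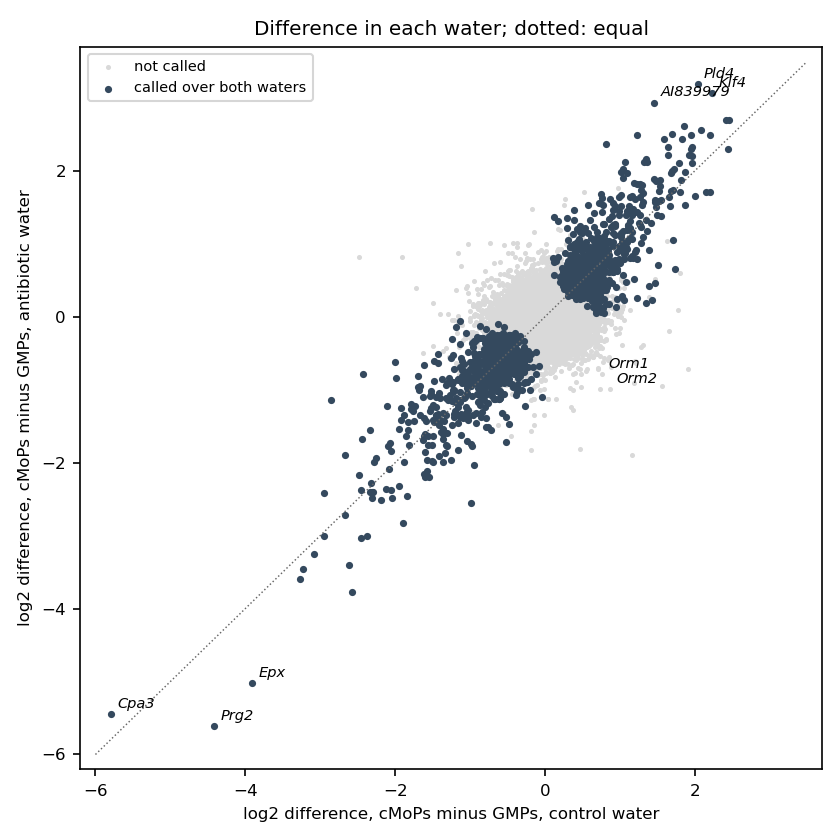
Log2 difference, cMoPs minus GMPs, of each gene in control water (horizontal) and in antibiotic water (vertical), with the 1202 genes called over both waters in dark and the line of equal difference dotted. The dark points lie in the lower left and upper right quadrants, which their choice by the mean of both waters favours. Cpa3, Prg2 and Epx lie at the far lower left and Klf4 and Pld4 at the upper right, and Orm1 and Orm2 lie off the line.

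MicroRNA genes were mostly dim on this platform. Of 479 measured, 215 averaged below 2.89 in both populations, 2 were called higher and 3 lower, and 39 had an unadjusted p under 0.05. Over all genes 2.6% were called higher and 2.82% lower. The call of smallest p, Mir208a, lay at 2.13 to 2.26 in cMoPs and 2.42 to 2.96 in GMPs, with both means under 2.89. Mir3088 and Mir3110 lost their call without cMoP control replicate 1 and Mir743 without cMoP control replicate 2, among other settings. The largest difference called was that of Mir103-2, whose probe set cannot tell the precursor from the mature form. It had 6.10, 5.68, 4.80, 6.30 and 4.48 in cMoPs, against 8.84, 6.82, 7.41, 7.80 and 7.94 in GMPs, without overlap (-2.32 ± 0.51, limma adjusted p = 0.011), and without cMoP control replicate 2 the call was lost (adjusted p of up to 0.0743). Mir107, which has the same seed, differed by 0.56 and was not called (adjusted p = 0.185 in limma). Their mature sequences from RefSeq on GRCm38.p6 are shown because they differ at 1 of 23 bases, with the seed, bases 2 to 8, in capitals. Mir103-2 gives miR-103-3p at chr2:131288103-131288125 (plus strand) and Mir107 gives miR-107-3p at chr19:34820700-34820722 (minus strand).
miR-103-3p: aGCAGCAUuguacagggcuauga
miR-107-3p: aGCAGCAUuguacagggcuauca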

How the data were processed

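RNA of sorted progenitors (2.6 ng) was amplified and hybridised to 1 array per sample, per the labels' protocols. The deposited table holds log2 signals per probe set. The submitters' processing notes name Transcriptome Analysis Console and Partek as the authors' tools, without versions, and how signals were summarised and normalized was not stated in these sources. Of 41345 probe sets, 23521 with 1 symbol were used (23328 matched by gene identifier, 193 not), 1814 with several symbols and 16010 with none were not. The brightest probe set per gene left 22180 genes, with no filter on dim genes and no missing value.

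limma 3.58.1 in R 4.3.3 was fitted to all 16 arrays with 6 group means (progenitor by water) (10 residual degrees of freedom), moderated with eBayes, two-sided, Benjamini-Hochberg over all genes at 0.05. The study's stated rate is 0.2. The script was tested on simulated data. The comparison, the 36 gene lists (872 of 975 entries measured) and the tests were chosen with earlier results of these data known. Named genes were the 20 largest rises and 20 largest falls among genes called with separate arrays, leaving out predicted and small RNA genes (32 such), all members of 5 lists, up to 8 members of smallest p and 3 of highest signal in each other list, 10 microRNAs, and the 5 genes of smallest p for the difference between waters. Across genes, the deviations of same-numbered cMoP and GMP arrays from their group means correlated at -0.049 to 0.044, and no pairing was used. With 2 control arrays per group these deviations mirror each other, so the control correlations cannot decide on pairing. On the third principal component, with 5.2% of the variance, replicate 1 was the highest control array, at 18.32 in cMoPs and 17.12 in GMPs. Replicate 3 was the highest antibiotic array, at -5.13 in cMoPs and -1.82 in GMPs, so a pairing is not excluded. Alternatives covered normalization, probe set choice, dim genes, variance model, arrays used, replicate block, array weights and each array left out.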

Additional observations from a re-analysis of the deposited data

Results flagged for a closer look

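For 5 named genes every cMoP array was on one side of every GMP array in antibiotic water and on the other side in control water. The interaction was tested in limma and was called for none of them (adjusted p = 0.932 for Nhp2 and 0.712 for each of the other 4). The named genes include the 5 of smallest p in this interaction test, 4930401C15Rik among them. For genes named by that rule the opposite order can follow from the choice itself. How many of all genes tested have this order was not counted, so no conclusion is drawn from the count among named genes. The difference between waters, antibiotic minus control, was -1.86 for Orm2, -1.55 for Orm1, -1.35 for 4930401C15Rik, -1.13 for E230015B07Rik and 0.41 for Nhp2. Orm1 and Orm2 encode orosomucoids, acute-phase plasma proteins. Orm2 had 3.33, 2.63 and 3.5 in cMoPs and 3.95, 4.40 and 4.07 in GMPs in antibiotic water, and 3.98 and 4.16 in cMoPs and 3.40 and 3.0 in GMPs in control water. These are low signals, and cross-hybridisation between the 2 genes, which are alike in sequence, was not tested. Groups of progenitor and water held at most 3 arrays, too few for the gap between 1 array and the rest of its group to be judged; the array weights estimated in limma lay between 0.728 for CMP control replicate 2 and 1.433 for cMoP antibiotic replicate 1.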

How the results depend on the processing

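Against 1202 genes called over both waters, 11 other settings of normalization, probe sets, dim genes, variances, arrays and model gave 1088 to 1408, the lowest being 1088 with the replicate block, under which 1006 of the 1202 were shared; the fewest shared were 880, with all probe sets. A rate under 0.2 gave 2438 and a requirement of 2-fold 324, by construction. Leaving out 1 array gave 833 to 1066 in all, 404 to 517 higher and 429 to 555 lower, 576 to 839 in antibiotic water, 193 to 372 in control water and 0 to 1 for the difference between waters, with fewer arrays in each fit. Leaving out CMP control replicate 2, an alternative chosen after seeing the data, gave 1209, with 871 in antibiotic water and 382 in control water. Of 180 named genes called, 39 lost their call in some setting and none changed sign. The cause was not tested. With only the cMoP and GMP arrays fitted, 7 named genes gained a call and 14 lost theirs. The replicate block moved no count over all genes by over 1.5 times, but it moved list counts. Oxidative phosphorylation had 0 higher in place of 1, and S100 proteins had 2 lower in place of 4. Cholesterol genes had 1 higher in place of 2, stem genes 1 higher in place of 2 and late neutrophil genes 1 higher in place of 0. The labels do not tell whether same-numbered arrays share more than a number. List medians that change sign across settings include those of the interferon-induced, S100, integrin and selectin, C-type lectin and microRNA lists. The number of arrays and dim signals limit small differences.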

Other observations

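Several gene groups outside the comparisons above were counted in the same way, each with lists chosen with earlier results known. Over all genes 2.6% were called higher and 2.82% lower, and in lists of this size a count of 1 cannot be told from these shares. Of 29 genes of oxidative phosphorylation 1 was called, Sdhb (0.36); 27 had a positive difference, as did 11750 of all 22180 genes, and the median was 0.09. The call of Sdhb was lost on leaving out any 1 of the 10 cMoP and GMP arrays except cMoP antibiotic replicate 2 or cMoP control replicate 1 (adjusted p of up to 0.152). Of 23 chemokine receptors 3 were called higher and 1 lower (median 0.12); the higher count was 2 on leaving out any 1 of the 10 cMoP and GMP arrays except GMP control replicate 1, the lower count was 0 without cMoP control replicate 2, and the median was 0.034, 0.044 and 0.048 without cMoP control replicate 1, cMoP control replicate 2 and GMP control replicate 2, and 0.179 without GMP control replicate 1. Of 22 integrins and selectins 4 were called higher and 3 lower (median -0.03). Among the S100 proteins 3 of 15 were higher and 4 lower; without cMoP control replicate 1 the lower count was 1. C-type lectins had 5 of 24 higher and 2 lower, and the higher count was 3 without cMoP antibiotic replicate 1 or 3, cMoP control replicate 1 or GMP control replicate 1. Paired receptors had 5 of 28 higher and 4 lower, and without cMoP control replicate 1 the counts were 3 and 1; the lower count was also 1 without GMP antibiotic replicate 2, cMoP control replicate 2 or GMP control replicate 2. Cholesterol genes had 2 of 18 higher, Hmgcs1 and Mvd, and 0 without cMoP control replicate 1. Of 10 genes of the lineage panel Itgam alone was called, and of 68 listed microRNA genes Mir103-2 alone.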
